A study of Mus musculus with 6 samples.

Results

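The genes described here encode the core RNA splicing machinery and its best known RNA-binding regulators. They are the protein-coding mouse genes whose symbols start with Srsf (serine/arginine-rich splicing factors), Snrp (small nuclear ribonucleoprotein polypeptides), Hnrnp (heterogeneous nuclear ribonucleoproteins), Sf3a or Sf3b (subunits of splicing factor 3). By this rule 53 of the 26286 genes in the table were members, of which 11 were Srsf, 12 Snrp, 21 Hnrnp, 3 Sf3a and 6 Sf3b genes. The rule used names and no measured value. Srsf3-ps, a pseudogene, was not a member, whereas Hnrnpa1l2-ps2 was, because the reference lists it as protein-coding in spite of its name.

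RNA was sequenced from cells of A024, a tri-transgenic mouse leukemia of B progenitor type, sorted from the bone marrow of Rag1 knockout mice. The 3 control libraries came from untreated mice and GFPhigh cells, and the other 3 came from mice fed doxycycline (dox) for 3 days and GFPmid cells, a treatment that the labels equate with restoration of Pax5, a transcription factor needed for B cell identity. The sort gate therefore changed with the treatment, and the contributions of gate and treatment cannot be told apart. All 6 libraries share the same leukemia, the same transgenes and the Rag1 knockout host, so a p-value here speaks to variation from mouse to mouse with 1 leukemia, and not to other leukemias. From what is known of this published model, and not from the labels, the transgenes are an active form of Stat5, a tet-controlled activator driven in blood cells by the Vav promoter, and a hairpin against Pax5 linked to GFP that dox switches off. The age of the mice is not given in the sources used here, and dox-treated cells without the hairpin were not analysed here.

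Splicing removes introns from pre-mRNA. The U1 particle recognises the start of an intron, U2 with the SF3A and SF3B complexes recognises the branch site near its end, and the U4/U6.U5 tri-snRNP then joins to form the active spliceosome. Apart from U6, these RNAs carry a ring of Sm proteins. SR proteins bind mostly to exons and favour their inclusion, while hnRNP proteins coat nascent transcripts and often oppose it. Counts per gene give the summed level of a gene's transcripts and say nothing of which exons were used.

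Most of these genes were lower after dox, and none of them passed the test as higher. Of the 53 members, 51 had enough counts to be tested, and 42 of those fell at an adjusted p under 0.05 (edgeR quasi-likelihood test, Benjamini-Hochberg over all 12275 genes tested). Over all genes tested, 26.6% were lower, 27.0% were higher and 53.6% changed in either direction. The median log2 fold change of the members was −0.46, beside 0.01 for all genes tested. The estimate was below 0 for 45 members and above 0 for 6. Among the 6, Hnrnph3 was the 1 gene with an unadjusted p under 0.05. In 43 of 51 members every dox library lay below every untreated library, an arrangement that 31.0% of all genes tested showed. The opposite arrangement held for 1 member, Sf3b1, and for 31.2% of all genes.

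The members are abundant genes, and abundant genes were called lower somewhat more often. Among the 7741 genes that averaged 20 CPM (counts scaled to library size) or more, a level chosen after the values were seen, 32.6% were lower, and 42 of the 50 members at that level were. The decreases were modest in size. The estimate lay below a 1.5-fold decrease in 14 of 51 members, against 12.7% of all genes. When the test required more than a 1.5-fold change, 4 members were called lower (Snrpa1, Snrpd1, Hnrnpab and Srsf2), against 5.46% of all genes called lower. By that stricter test the members' share was close to the background. By the estimate alone, 14 of 51 against 12.7%, it was above it.

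**Figure D1:**
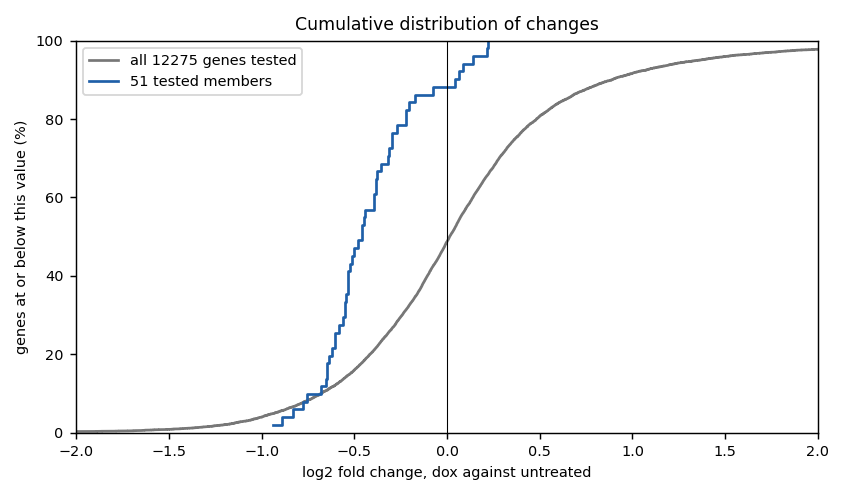
Cumulative percentage of genes (vertical axis) at or below each log2 fold change of dox against untreated (horizontal axis), for the 51 tested members (blue) and all 12275 genes tested (grey), with values beyond 2 in either direction not drawn. The members' curve lies to the left of the curve of all genes around its middle, with medians of −0.46 and 0.01, and the members span −0.94 to 0.22.

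Summed over all members, the level was 20192, 20424 and 20379 CPM in the untreated libraries and 14969.7, 15049 and 16059 CPM in the dox libraries. The groups did not overlap, and the mean sum after dox was 75.5% of the untreated mean. In shares of all counts, the members went from 2.03% to 1.54%. The Snrp sum fell to 66.6% of its untreated level (1166 ± 41.1 to 777 ± 48.2 CPM, mean ± SD, n = 3), Sf3a to 69.6%, Srsf to 71.2% and Hnrnp to 75.9%. The Sf3b sum stood at 87.8% (2243 ± 80.9 to 1970.3 ± 38.3 CPM), since it holds Sf3b1, an abundant gene that was not lower. By count, 10 of 11 tested Snrp genes fell (median log2 −0.59), 9 of 10 Srsf genes (−0.41), 15 of 21 Hnrnp genes (−0.38), 3 of 3 Sf3a genes (−0.54) and 5 of 6 Sf3b genes (−0.43). Differences between families were not tested. In bulk samples, fewer cells of a type and less RNA per cell cannot be told apart.

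**Figure D2:**
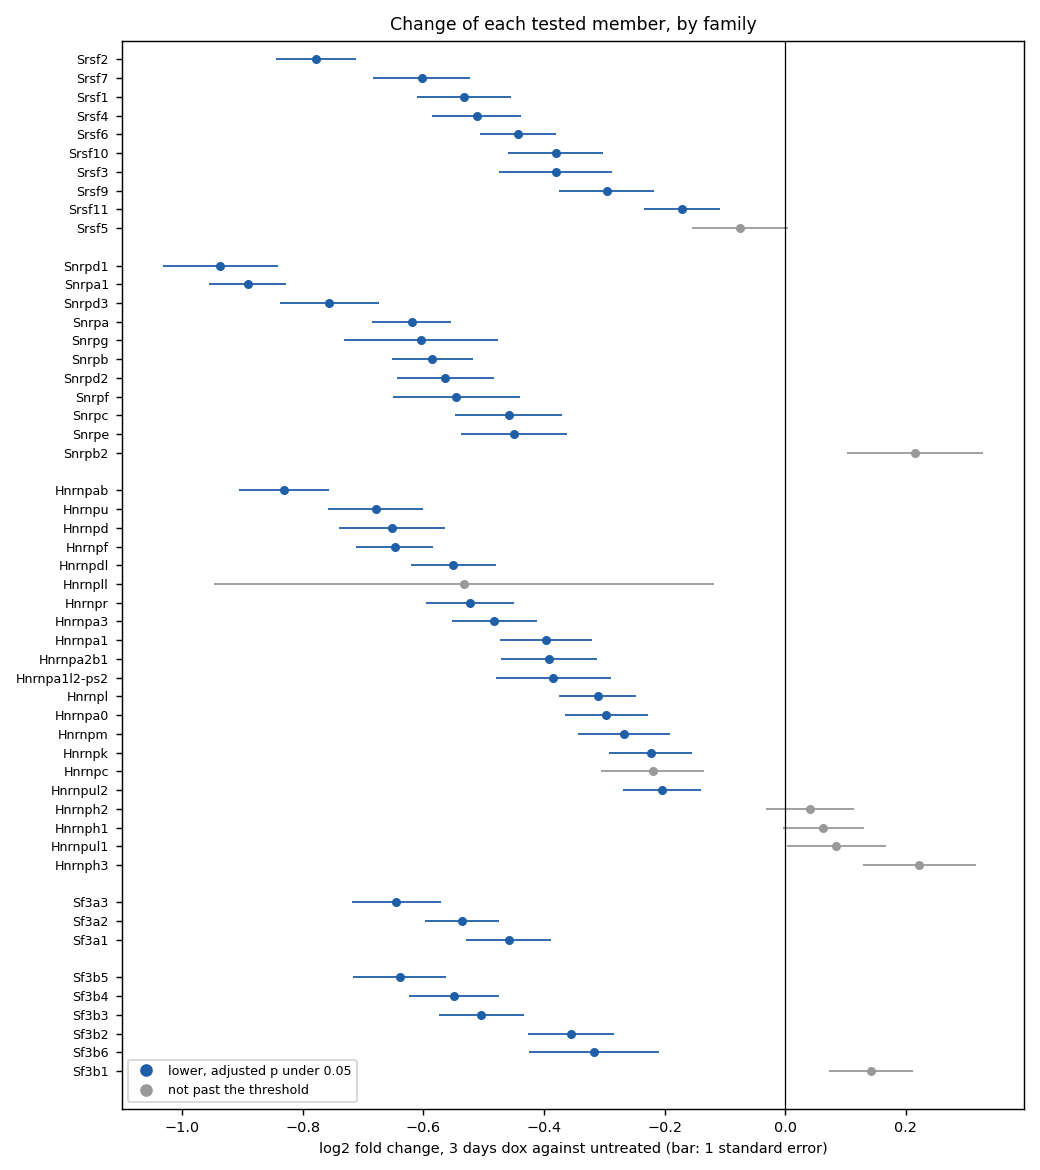
Log2 fold change of each tested member (points, with bars of 1 standard error) after 3 days of dox against untreated, by family from top to bottom: Srsf, Snrp, Hnrnp, Sf3a and Sf3b. The 42 blue points passed the test as lower, and the 9 grey points did not pass it, 6 of them to the right of 0.

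**Figure D3:**
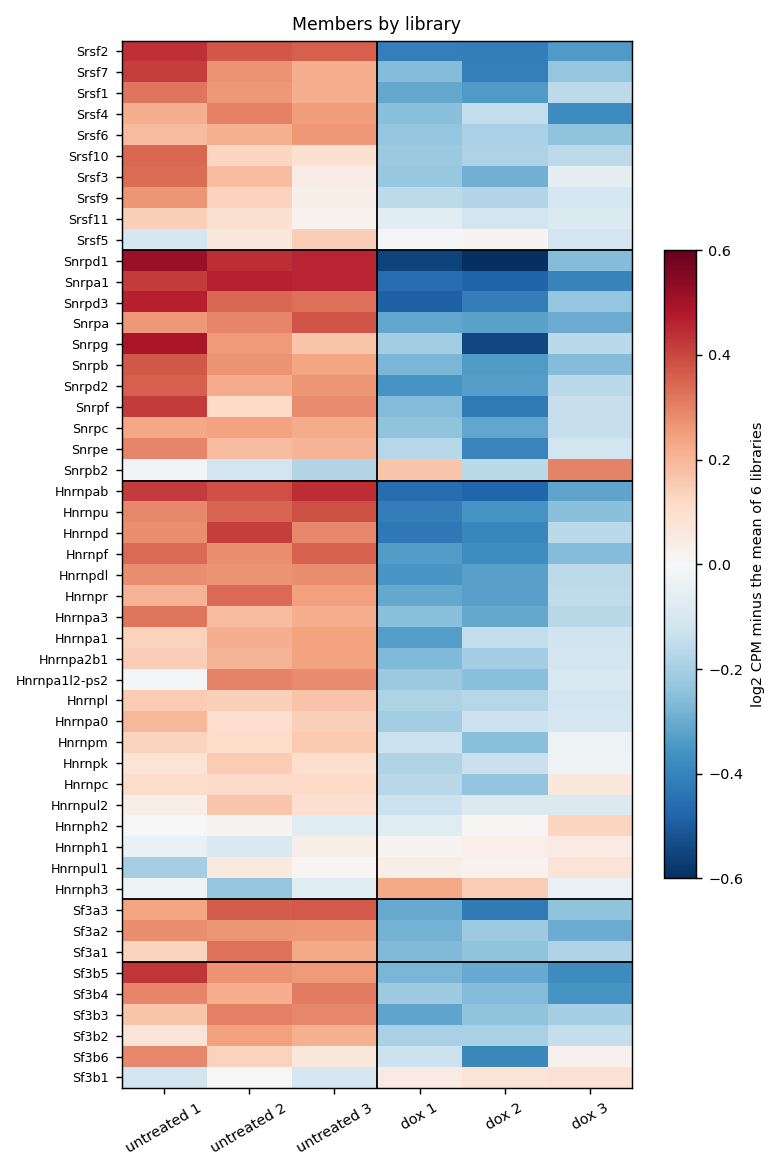
Log2 CPM of each tested member except Hnrnpll, left out for its low level (rows, in the same order), in each of the 6 libraries (columns), as the difference from the row's mean, on a colour scale limited to ±0.6. The 3 untreated libraries are red and the 3 dox libraries blue in most rows, while Srsf5, Snrpb2, Hnrnph1, Hnrnph2, Hnrnph3, Hnrnpul1 and Sf3b1 are not.

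The promoters of a few members are shown, because some partners of genes that fell did not pass the test and because a script looked in them for short motifs of general activators. The bases are the 100 before the start site in RefSeq (GRCm38.p6, a later build than the mm9 of the counts), 5′ to 3′ on the gene's strand. In the first set, capitals mark CACGTG, the E-box bound by Myc, Max and related factors. Snrpa lies at chr7:27196272-27196371 (−), Hnrnpd at chr5:99978939-99979038 (−), Hnrnpf at chr6:117907704-117907803 (+) and Hnrnpa3 at chr2:75659159-75659258 (+). The genes of this set, and the start site shown for each, were picked because the stretch held an E-box. All 4 genes fell after dox, as did 42 of the 51 tested members.
Snrpa: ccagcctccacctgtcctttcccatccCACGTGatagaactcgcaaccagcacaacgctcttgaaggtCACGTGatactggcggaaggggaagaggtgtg
Hnrnpd: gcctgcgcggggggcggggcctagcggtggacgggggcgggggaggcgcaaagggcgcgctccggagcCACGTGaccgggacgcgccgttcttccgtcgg
Hnrnpf: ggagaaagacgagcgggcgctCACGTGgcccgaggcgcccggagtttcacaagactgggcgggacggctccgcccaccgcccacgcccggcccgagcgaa
Hnrnpa3: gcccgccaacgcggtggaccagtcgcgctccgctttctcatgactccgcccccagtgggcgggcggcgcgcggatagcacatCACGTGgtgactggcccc

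In the second set, each gene that fell is followed by a relative that did not pass the test. Capitals mark any motif of a list searched on both strands. The list held the E-box, the ETS family sequence CCGGAAGT, the NRF1 sequence CGCATGCG and the YY1 sequence AAGATGGC. For E2F factors it held TTTCCCGC and TTTGGCGC. The shorter motifs were CCAAT for the factor NF-Y and, for SP1 and its relatives, GGGCGG. The TATA box was searched as the letters TATAAA. Snrpa1 (fell) lies at chr7:66060236-66060335 (+), Snrpb2 at chr2:143062969-143063068 (+), Srsf2 (fell) at chr11:116853095-116853194 (−) and Srsf5 at chr12:80945399-80945498 (+).
Snrpa1: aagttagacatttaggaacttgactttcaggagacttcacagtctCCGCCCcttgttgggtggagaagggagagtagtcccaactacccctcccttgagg
Snrpb2: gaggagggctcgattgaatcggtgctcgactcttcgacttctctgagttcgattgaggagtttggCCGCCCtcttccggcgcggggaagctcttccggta
Srsf2: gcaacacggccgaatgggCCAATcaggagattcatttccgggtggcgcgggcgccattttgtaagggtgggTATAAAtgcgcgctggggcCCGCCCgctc
Srsf5: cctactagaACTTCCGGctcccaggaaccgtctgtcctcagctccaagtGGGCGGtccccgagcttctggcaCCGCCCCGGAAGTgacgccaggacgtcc

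Snrpa1 and Snrpb2 each held a single SP1 match in this stretch. Srsf2 held an NF-Y match, a TATA box and an SP1 match, and Srsf5 held an ETS match at the far end, an SP1 match in the middle and an SP1 match overlapping an ETS match near the start site. The full windows of 300 bases (250 before and 50 after the start) were available for 45 of the 51 tested members. A gene counted once if any of its windows held the motif, so shares of genes and shares of promoters are unlike measures. An E-box was present in 6 of the 45 (13.3%), against 7.15% of all 32851 promoters and 12% of tested genes. Of tested genes that averaged 20 CPM or more, 12.5% held it. The 6 were Snrpa, Hnrnpd, Hnrnpf, Hnrnpa3, Hnrnpm and Hnrnph2, and the last of these was not lower. An ETS match was present in 9 members (20%), against 3.89% of all promoters, 9.89% of tested genes and 11.6% of those at 20 CPM or more. NF-Y matches were present in 51.1% of members and 43.5% of tested genes, SP1 matches in 71.1% and 68.3%, and NRF1 matches in 6.67% and 4.62%. YY1 matches were present in 4.44% of members and 5.68% of tested genes, and the TATA box in 15.6% and 8.39%. The first E2F sequence was present in 4 members (8.89%), 1 of them not called, and in 2.54% of tested genes. The second was present in 0 of 45 members and 1.19% of tested genes. A match describes these letters and is not a measured binding site.

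Among the U1 and U2 proteins, Snrpa1 had the smallest p of any member. Snrpa1 encodes a U2 protein that, with the product of Snrpb2, binds a stem loop of U2 RNA. Its level was 115, 118 and 117 CPM in the untreated libraries and 62.4, 61.4 and 64.8 CPM in the dox libraries. It thus stood at 53.9% of the untreated mean in libraries that hardly varied (log2 fold change −0.89, standard error (SE) 0.06, adjusted p = 1.05e-05). Snrpb2 encodes that partner and did not follow. Its level was 76.5, 71.4 and 68.5 CPM untreated and 86.9, 69.3 and 95.1 CPM after dox. Dox replicate 2 fell within the untreated range, and the difference missed the threshold (log2 0.22, SE 0.11, adjusted p = 0.135). Without dox replicate 2, Snrpb2 passed it (0.34, adjusted p = 0.00774). Both U1 genes in the family fell. Snrpa, whose product binds a stem loop of U1 RNA, was at 99.9, 102 and 108 CPM untreated and at 67.3, 66.8 and 68.0 CPM after dox (log2 −0.62, SE 0.07, adjusted p = 7.14e-05). Snrpc, whose product steadies the pairing with the intron's start, stood at 72.8% of its untreated level (adjusted p = 0.00208).

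All 7 tested genes of the Sm ring fell, with a median log2 fold change of −0.59. Snrpd1, which encodes SmD1, showed the largest decrease of any member. It was at 105, 99.6 and 101 CPM untreated and at 49.9, 48.4 and 61.2 CPM after dox (log2 −0.94, SE 0.10, adjusted p = 5.73e-05). Snrpd3, for SmD3, was at 171, 157 and 156 CPM untreated and at 88.1, 92.7 and 105 CPM after dox (log2 −0.76, SE 0.08). The groups were well apart for both genes, with dox replicate 3 the highest of its group. Snrpb, which encodes SmB and its splice form SmB′, was the most abundant ring gene per length and fell from 385 ± 19.2 to 257 ± 7.18 CPM (n = 3 each, log2 −0.59). Snrpd2, Snrpe, Snrpf and Snrpg fell by 0.45 to 0.60 on the log2 scale. Snrpn, the close relative of Snrpb known from neurons, had 1 read in a single dox library and none in the other 5, and the filter removed it.

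The SF3A and SF3B genes fell together apart from the largest subunit. SF3A joins U2 to the branch site. Sf3a3 was at 144, 156 and 157 CPM untreated and at 98.6, 90.6 and 103 CPM after dox (log2 −0.64, SE 0.07, adjusted p = 0.000107). Sf3a2 was at 138, 137 and 136 CPM untreated and at 93.6, 97.9 and 92.6 CPM after dox (log2 −0.54, SE 0.06). Sf3a1 completed the complex with a log2 fold change of −0.46. No dox library reached an untreated one for any of these genes.

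In SF3B, which holds the branch site adenosine, Sf3b5 was at 86.2, 77.0 and 76.4 CPM untreated and at 52.8, 51.8 and 49.2 CPM after dox (log2 −0.64, SE 0.08, adjusted p = 0.000146). Sf3b4 was at 44.2, 42.1 and 44.9 CPM untreated and at 31.2, 30.2 and 28.3 CPM after dox (log2 −0.55). Sf3b3 was at 521, 572 and 567 CPM untreated and at 373, 393 and 404 CPM after dox (log2 −0.50). All of them separated the groups, as did Sf3b2, which went from 609 ± 37.0 to 476 ± 9.74 CPM (log2 −0.36). Sf3b6, which contacts the branch site adenosine, had the weakest call (log2 −0.32, adjusted p = 0.0325), which was lost without untreated replicate 1, untreated replicate 2, dox replicate 1 or dox replicate 2, at up to 0.106.

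Sf3b1, the scaffold of SF3B and a gene often mutated in blood cancers, was at 824, 887 and 829 CPM untreated and at 919.7, 940.0 and 943 CPM after dox. Every dox library was above every untreated one, but the difference was small and missed the threshold (log2 0.14, SE 0.07, adjusted p = 0.112).

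Among SR proteins, Srsf2 (SC35), known for point mutations in myeloid disease, fell most. It was at 806, 769 and 762 CPM untreated and at 447, 447 and 469 CPM after dox (log2 −0.78, SE 0.07, adjusted p = 2.45e-05). Srsf7, which also takes part in mRNA export, was at 457, 413 and 398 CPM untreated and at 286, 257 and 292 CPM after dox (log2 −0.60, SE 0.08). The groups stood clear of each other for both genes, at 58.3% and 65.8% of the untreated mean. Srsf1 (SF2/ASF), an SR protein with oncogenic activity in other tissues, went from 1075 ± 40.0 to 743 ± 50.5 CPM, with library values of 1117, 1070.4 and 1038 against 723, 706 and 801 CPM (log2 −0.53, SE 0.08, adjusted p = 0.000429). Srsf6 was at 523, 531 and 547 CPM untreated and at 390.2, 400.2 and 387 CPM after dox, and Srsf4 at 234, 247 and 239 CPM and at 169, 181 and 155 CPM. These splicing factors, which have a pair of RNA recognition motifs like Srsf1, stood at 73.5% and 70.1% of untreated. Srsf3, Srsf9 and Srsf10 fell by 0.30 to 0.38 on the log2 scale. Srsf3-ps, the pseudogene, was counted too (log2 −0.40, beside −0.38 for Srsf3), and the split of reads between such copies is uncertain. Srsf11 was at the edge of the threshold (log2 −0.17, adjusted p = 0.0447), and leaving out any 1 library lost the call, at 0.0568 to 0.116.

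Srsf5 was the exception in the family. It was at 164, 185 and 195 CPM untreated and at 175, 179 and 163 CPM after dox. The libraries of the groups were interleaved, and the estimate was −0.07 (SE 0.08, adjusted p = 0.455). Srsf12 had no reads in any of the 6 libraries.

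The Hnrnp family held the most abundant members per length. In RPKM, which divide the scaled counts by gene length and so allow comparison between genes, untreated cells had 524 ± 17.2 for Hnrnpa2b1 and 522 ± 16.8 for Hnrnpu, the top pair, which do not differ beyond their spread. Hnrnpab followed at 440.0 ± 8.86, Srsf2 at 409 ± 12.5 and Snrpb at 344 ± 17.1 (SD, n = 3). After dox, Hnrnpa2b1 remained first at 399.6 ± 21.5 RPKM and Hnrnpu second at 326 ± 18.4, while Hnrnph1 moved from rank 7 to rank 3 at 297 ± 3.19. The genes it passed had fallen, and Hnrnph1 was not called in either direction.

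All 3 genes of the hnRNP D type, which bind AU-rich RNA, fell, and Hnrnpab had the largest decrease in this family. Hnrnpab was at 1122, 1096 and 1141 CPM untreated and at 611, 604 and 674 CPM after dox (log2 −0.83, SE 0.07, adjusted p = 2.91e-05). Hnrnpd (AUF1) was at 636, 697 and 639.7 CPM untreated and at 388, 399 and 467 CPM after dox (log2 −0.65, SE 0.09). Hnrnpdl was at 339, 336 and 339 CPM untreated and at 219, 222 and 250.02 CPM after dox (log2 −0.55, SE 0.07). The 3 genes kept the groups apart, and dox replicate 3 was the dox library nearest to untreated for each.

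Hnrnpu (SAF-A), a nuclear scaffold protein, was at 1848, 1927 and 1968 CPM untreated and at 1136, 1182 and 1269 CPM after dox (log2 −0.68, SE 0.08, adjusted p = 0.000115). Its relatives differed: Hnrnpul2 had a small decrease (log2 −0.20, adjusted p = 0.025), lost without untreated replicate 2, untreated replicate 3 or dox replicate 1 (at up to 0.104), and Hnrnpul1 was not called. Hnrnpul1 was at 489, 587 and 568 CPM untreated and at 578, 571 and 594 CPM after dox (log2 0.08, adjusted p = 0.408). Its dox libraries lay within or just above the untreated range.

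The hnRNP A/B proteins, which repress splice sites and package transcripts, fell by similar amounts. Hnrnpa1 was at 382, 403 and 411 CPM untreated and at 276, 314 and 319 CPM after dox (log2 −0.40, adjusted p = 0.00204). Hnrnpa2b1 was at 2068, 2152 and 2208 CPM untreated and at 1554, 1617 and 1727 CPM after dox (log2 −0.39, adjusted p = 0.00272). Hnrnpa3 was at 364, 330.3 and 338 CPM untreated and at 245, 235 and 259 CPM after dox (log2 −0.48, adjusted p = 0.000426). No group overlapped for these close paralogs. Hnrnpa0 (log2 −0.30) and Hnrnpa1l2-ps2 (log2 −0.38) were also lower. The split of reads between Hnrnpa1l2-ps2 and Hnrnpa1 is uncertain because of their likeness, and so are the counts of both.

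In the hnRNP F/H group, whose proteins bind G-rich RNA, Hnrnpf fell and its 3 relatives did not pass the test. Hnrnpf was at 264, 254 and 267 CPM untreated and at 166, 161 and 175 CPM after dox (log2 −0.65, SE 0.06, adjusted p = 4.76e-05). Hnrnph1 was at 629.6, 607 and 662 CPM untreated and at 654, 661 and 668 CPM after dox (log2 0.06, adjusted p = 0.456). Hnrnph2 was at 100.2, 101 and 95.4 CPM untreated and at 95.4, 101 and 109.5 CPM after dox (log2 0.04, adjusted p = 0.664). For both, the libraries of the groups overlapped. Hnrnph3 was at 61.9, 53.5 and 59.9 CPM untreated and at 73.7, 69.9 and 61.0 CPM after dox (log2 0.22, SE 0.09, adjusted p = 0.0701). Untreated replicate 1 lay above dox replicate 3, and without dox replicate 3 the gene passed the threshold as higher (adjusted p = 0.0279).

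Hnrnpl, a repressor of exons in T and B cells, was at 641, 637 and 651 CPM untreated and at 508, 513 and 534 CPM after dox (log2 −0.31, adjusted p = 0.0029). Its paralog Hnrnpll was near the floor at 0.512 to 1.496 CPM in all 6 libraries, with an estimate of −0.53 (SE 0.41) that depth could not resolve. Hnrnpc, which binds U-rich stretches, was at 415, 416 and 417 CPM untreated and at 342, 326 and 402 CPM after dox. Every dox library was below every untreated one, but the dox libraries were spread and the adjusted p was 0.0535. Without dox replicate 3 it was 0.004. Hnrnpr (log2 −0.52) was lower in each fit that left out a library. Hnrnpm (−0.27) and Hnrnpk (−0.22) were lower too, but the call was lost without untreated replicate 3 for Hnrnpm (adjusted p = 0.0559) and without untreated replicate 2, untreated replicate 3 or dox replicate 1 for Hnrnpk (up to 0.0844).

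To describe partners beside each other, ratios of RPKM were formed for 9 pairs of genes, some of them chosen after the values were seen. Snrpb2 to Snrpa1, the partners on U2 RNA, was 0.678, 0.616 and 0.592 in untreated libraries and 1.42, 1.15 and 1.49 in dox libraries. The order of the partners was reversed, with Snrpa1 the higher per length before dox and Snrpb2 the higher after it. Sf3b1 to Sf3b3 went from 1.06 ± 0.0437 to 1.66 ± 0.0464 and Sf3b1 to Sf3a3 from 1.52 ± 0.0683 to 2.64 ± 0.181. Hnrnph1 to Hnrnpf went from 3.25 ± 0.0710 to 5.32 ± 0.183 and Srsf5 to Srsf2 from 0.269 ± 0.0314 to 0.437 ± 0.0323 (SD, n = 3). Hnrnpa2b1 to Hnrnpa1 was 2.52 ± 0.0177 before and 2.53 ± 0.112 after dox, with the uncertainty of the Hnrnpa1 counts given above. The libraries of the groups did not overlap for 7 of the 9 pairs and overlapped for the Hnrnpa2b1 pair and for Hnrnpl to Hnrnpll. Since pairs were formed from genes seen to move apart, these ratios restate the values above. An exact permutation test with 3 libraries per group cannot go below p = 0.1, the value it gave for those 7 pairs. It could therefore pass no pair, and nothing is drawn from it.

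**Figure D4:**
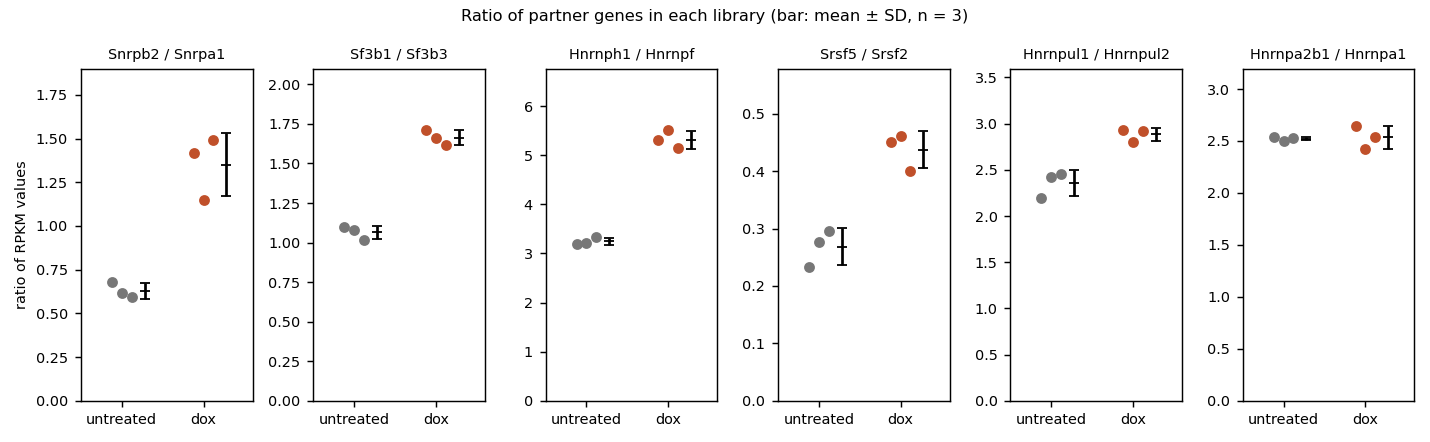
Ratio of RPKM values of 6 gene pairs in each library (points; grey untreated, orange dox), with the mean ± SD of 3 libraries as a black bar and the vertical axis starting at 0. In 5 panels all dox points lie above all untreated points, most widely for Snrpb2 / Snrpa1, while Hnrnpa2b1 / Hnrnpa1 stays near 2.5 in both groups.

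Other genes of the splicing pathway were read from 10 lists of factors outside the 5 families. Of 152 tested genes, 81 were lower and 10 higher, with a median log2 fold change of −0.26, beside 26.6% lower, 27.0% higher and a median of 0.01 over all genes tested. Differences between lists were not tested. The list of Sm core assembly and snRNP import had 13 of 15 genes lower and 0 higher (median −0.50), and its genes of smallest p were Gemin4 (50.5 ± 1.75 to 26.9 ± 1.66 CPM, log2 −0.91) and Gemin5 (log2 −0.78), subunits of the SMN complex that loads Sm rings onto snRNAs. Of the LSm ring of U6, 5 of 7 genes were lower (median −0.60), and Lsm2 went from 96.1 ± 1.36 to 45.9 ± 0.377 CPM (log2 −1.07, adjusted p = 5.59e-06). The exon junction complex had 6 of 9 lower (median −0.51), with Rnps1 and Eif4a3, its helicase, each at −0.59.

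The tri-snRNP list had 13 of 20 lower and 1 higher, and Snu13 (log2 −0.74), which binds U4 RNA, and Prpf31 (−0.60) had the smallest p. The branch site list had 9 of 14 lower, among them U2af2 (−0.48), the subunit that binds the polypyrimidine tract, and 1 higher, Rbm5 (163 ± 2.15 to 276 ± 13.6 CPM, log2 0.76), a regulator of apoptosis genes' splicing. Other U1 proteins had 3 of 8 lower and 0 higher, with Snrnp70 at −0.46. The Prp19 and catalytic step list had 8 of 24 lower and 0 higher, with Prpf19 at −0.63. Both counts of lower genes were near the share of all genes, while 27.0% of all genes were higher. The minor spliceosome, which removes a rare class of introns, had 2 of 9 lower (Snrnp25 and Snrnp35), 1 higher (Rnpc3) and a median of −0.04. Among other splicing regulators, 19 of 36 were lower and 3 higher, with Pcbp1 (−0.58) and Ptbp1 (−0.65), the polypyrimidine tract binding protein, having the smallest p.

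Of 10 tested kinases and import factors of SR proteins, 3 were lower and 4 higher, numbers near the 26.6% and 27.0% of all genes, and the difference from the SR genes was not tested. Srpk3 was at 6.92, 6.98 and 6.80 CPM untreated and at 19.4, 18.8 and 15.8 CPM after dox (log2 1.38, SE 0.12, adjusted p = 2.99e-05). Clk1, a nuclear kinase of SR proteins, was at 144, 128 and 142 CPM untreated and at 250.5, 286 and 239 CPM after dox (log2 0.91, SE 0.09, adjusted p = 3.65e-05). Clk3 (0.42) and Clk4 (0.48) were also higher, while Srpk1, the main cytoplasmic kinase (−0.44), Tnpo3, the importin of SR proteins (−0.24), and Prpf4b (−0.18) were lower. The groups did not overlap for Srpk3, Clk1, Clk3 or Clk4.

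**Figure D5:**
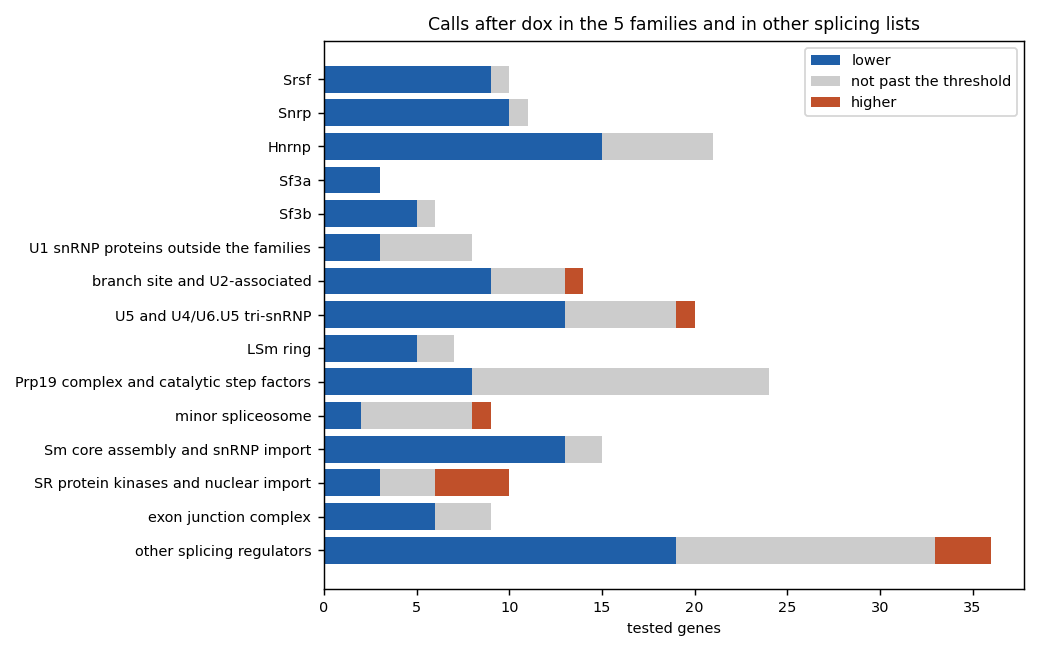
Number of tested genes called lower (blue), called higher (orange) or not past the threshold (grey) after dox in the 5 families and in the 10 other splicing lists. The 5 families have no orange segment, while the list of SR protein kinases and nuclear import has 4 genes higher and 3 lower.

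Total counts per library ran from 14185203 to 15612435. The B lineage label held, since all 8 B lineage markers were expressed, of which 7 rose and Cd24a fell. Markers of macrophages and neutrophils were low and higher after dox. The 8 macrophage markers summed to 19.0 to 26.6 CPM in untreated libraries and to 41.8 to 102 CPM in dox libraries, and 7 of 8 were called higher. The 9 neutrophil markers summed to 83.0 to 107 CPM untreated and to 498, 106 and 236 CPM in dox replicates 1, 2 and 3, and all 7 that were tested were called higher. The part of these cells in the result was not tested. Without dox replicate 1, which had the highest of these sums, 38 members were lower and 0 higher. The macrophage sums of dox replicates 2 and 3 (41.8 and 54.4 CPM) still lay above untreated. That fit therefore does not separate these cells from the result. Of the 6 T cell markers, Cd3e and Cd8a had no reads in any library, and Cd247 alone was tested, at 79.6 CPM untreated and 78.2 CPM after dox (not called). Of the 5 NK cell markers, Klre1 had no reads, Klrb1c was not called, and Prf1 was called higher from 0.340 to 0.987 CPM. None of the 3 tested erythroid markers was called, and megakaryocyte markers summed to 0.210 to 0.658 CPM. Of the stroma and endothelium list, 2 of 3 tested genes were called higher, which were Col1a1 (0.802 to 1.77 CPM) and Pecam1 (97.5 to 145 CPM). Cxcl12 was not called (0.370 to 0.706 CPM). Cdh5 (0.342 to 0.578 CPM), Col1a2 and Lepr were too low to be tested, so Pecam1 alone of this list was well above the floor.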

How the data were processed

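Per the labels, total RNA of sorted leukemia cells was extracted with a QIAGEN RNeasy kit and sequenced in 6 libraries, 3 per group. The authors deposited integer read counts for each gene, beside a gene length. Per the submitters' processing notes, CASAVA 1.8.2, featureCounts and the mm9 build were used, and the sources used here do not name the aligner, annotation or strand setting. Reads of overlapping genes on opposite strands therefore cannot be told apart, and near-identical copies are uncertain. The per-sample files held the same counts as the series table.

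Members were matched by Entrez identifier to RefSeq names (24176 of 26286 matched, 2110 did not). The filterByExpr default (minimum count of 10) kept 12275 genes holding 99.93% of counts. Libraries were scaled by TMM (factors 0.991 to 1.01) and compared without covariates in edgeR 4.0.16 (glmQLFit and glmQLFTest, R 4.3.3), and calls were made at a Benjamini-Hochberg adjusted p under 0.05. Each standard error is the log2 fold change divided by the square root of F. CPM are on the TMM scale, and RPKM were computed from the deposited lengths. The test script was tested on simulated data. Alternatives used DESeq2 1.42.0, limma 3.58.1 voom, other scalings and filters, a replicate block, a fold minimum and leaving out each library. Members and lists were chosen with earlier results of these data known. By rule, values in every library went to the members of each family with the smallest p, to the largest rise and fall, to members that missed the threshold and to close paralogs, and at most the 2 genes of smallest p were to be named from each other list. The other list genes named, Prpf4b and the called SR kinases and import factors among them, were chosen after their values were seen.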

Additional observations from a re-analysis of the deposited data

How the results depend on the processing

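Of the 42 members called lower, 37 were called in all 14 alternative fits without a fold minimum, and all 42 kept a negative estimate. Scaling, filter and tool moved the count of lower members between 41 and 43 and that of all genes tested little, and no scaling moved the median of all genes by 0.1 or more on the log2 scale. Requiring more than a 1.5-fold change left 1598 called genes of 6582, and 4 lower members, of which 1 was Srsf, 2 were Snrp, 1 was Hnrnp, 0 were Sf3a and 0 were Sf3b. Leaving out 1 library at a time gave 38 to 42 lower members and 0 to 1 higher ones, the latter being Snrpb2 (Snrp range 0 to 1) without dox replicate 2 and Hnrnph3 (Hnrnp range 0 to 1) without dox replicate 3. It moved the Hnrnp median log2 fold change between −0.42 and −0.31 and the Sf3b median between −0.48 and −0.41. Without a low-count filter the Sf3b median was −0.47. The Hnrnph2 log2 fold change, never called, turned negative without dox replicate 3 and ranged from −0.0218 to 0.0834 over the fits that left out 1 library. The cause of these shifts was not tested, and the fits that left out 1 library also had fewer samples. With the replicate block, 42 members were lower, 16 of them Hnrnp and 8 Srsf, since Hnrnpc was gained (the DESeq2 test, voom and no filter gained it too) and Srsf11 was lost, as it was under upper-quartile scaling. Deviations of same-numbered libraries correlated at 0.305, 0.288 and −0.0373, and those of differently numbered libraries at −0.336 to 0.0248. Whether the numbers pair the samples cannot be told from these values, and the main fit took the samples as unpaired. Genes near 1 CPM, such as Hnrnpll, are limited by depth.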
